A study of Mus musculus with 8 samples.

Results

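The 72 piRNA-annotated rows of the small RNA count table were described, out of 1827 rows in all. They were chosen by their identifier, which names a mouse piRNA (mmu_piR) and gives its position, and the remaining 1755 rows were miRs. The RNA came from extracellular vesicles (EVs), the membrane vesicles that cells release. OXI-EVs were collected from oxidative muscle, the soleus with the red gastrocnemius, and GLY-EVs from glycolytic muscle, the whole quadriceps. Both came from male C57BL/6J mice, an inbred strain, bought at 10 to 12 weeks old, with no treatment or altered allele named, and their teased muscle had stood in serum-free medium for 24 h. Each group had 4 libraries from 3 to 8 ng of RNA, 1 preparation each. Whole muscles also hold vessels, blood, nerve and connective tissue, and vesicles of these cannot be told apart here from those of the fibres. The labels do not say whether OXI-EV and GLY-EV preparations shared animals, so p-values measure the spread between preparations only.

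PIWI-interacting RNAs (piRNAs) are small RNAs, longer than miRs, that are loaded onto PIWI proteins and are made without Dicer. In the germline of mice they guide the silencing of transposons and, in spermatocytes, are cut from long precursors of clustered loci, so that many piRNAs lie side by side on 1 strand. Outside the germline PIWI proteins are scarce, and small RNAs with piRNA names in such samples are matches to a catalogue of sequences. PIWI binding was not measured here, and "piRNA" below stands for this annotation. The positions are those in the identifiers, whose genome build is not stated, and 0 of the 72 overlapped a small RNA gene of GRCm38, the build named for the processing. They were therefore used for order and spacing, with no gene annotation, and the reference files used here hold no piRNA sequences.

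Properties of the libraries bear on every value below. The muscle miRs fixed as markers were miR-1a, miR-133a, miR-133b and miR-206. They summed to 51953 to 84334 counts per 1000000 mapped reads (CPM) in OXI-EV against 64679 to 122047 CPM in GLY-EV. They did not go the same way. In counts, miR-206-3p was higher in OXI-EV (147188 to 294185 against 40036 to 49057). Lower in OXI-EV were miR-1a-3p (88028 to 113291 against 318672 to 526426), miR-133a-3p (1359 to 2794 against 9418 to 57563) and miR-133b-3p (172 to 342 against 1108 to 4381). Of 16 testis miRs, markers of the tissue richest in piRNAs, 15 were listed, at a summed 51.7 to 117 CPM in OXI-EV against 25.7 to 86.3 CPM in GLY-EV, and these ranges overlapped. Endothelial miR-126a-3p was at 44.1 to 161 CPM in OXI-EV against 176 to 654 CPM in GLY-EV, without overlap, whereas the 2 red blood cell miRs (3.45 to 63.6 against 4.58 to 26.8 CPM) and the 2 leukocyte miRs (7.13 to 15.9 against 10.9 to 49.0 CPM) overlapped. The part of other cell types in the piRNA counts was not tested. GLY-EV replicate 4 stood apart. It had 196164 counts of the whole table per 1000000 mapped reads, against 75763 to 118849 in OXI-EV and 103986 to 118208 in the other GLY-EV libraries, and it held the highest GLY-EV count of 56 of the 72 piRNA rows. CPM sets counts, which appear to be molecules, over reads, and this library had the fewest reads per count. Results that rest on this library are also given without it.

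Zeros did not fall one library at a time. Of the 72 piRNA rows 48 had counts in all 8 libraries, and the other 24 held 68 zeros. All 68 fell on both libraries of 1 of 4 fixed pairs, namely OXI-EV replicates 1 and 4, OXI-EV replicate 2 with GLY-EV replicate 4, OXI-EV replicate 3 with GLY-EV replicate 2, and GLY-EV replicates 1 and 3. The miR rows followed the same pairs in 1012 of their 1020 zeros. In every pair the larger count of a row was either 0 or at least 10, over all 1827 rows, whereas the 24 other ways of pairing the libraries gave 30 to 365 rows with a larger count from 1 to 9. These values show a 0 to stand for fewer than 10 counts in both libraries of a pair, and such a 0 was not read as absence. What joins the libraries of a pair is not stated in the sources used here. The groups could be compared inside 2 pairs, OXI-EV replicate 2 with GLY-EV replicate 4 and OXI-EV replicate 3 with GLY-EV replicate 2, and the other pairs held 1 group each.

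**Figure D1:**
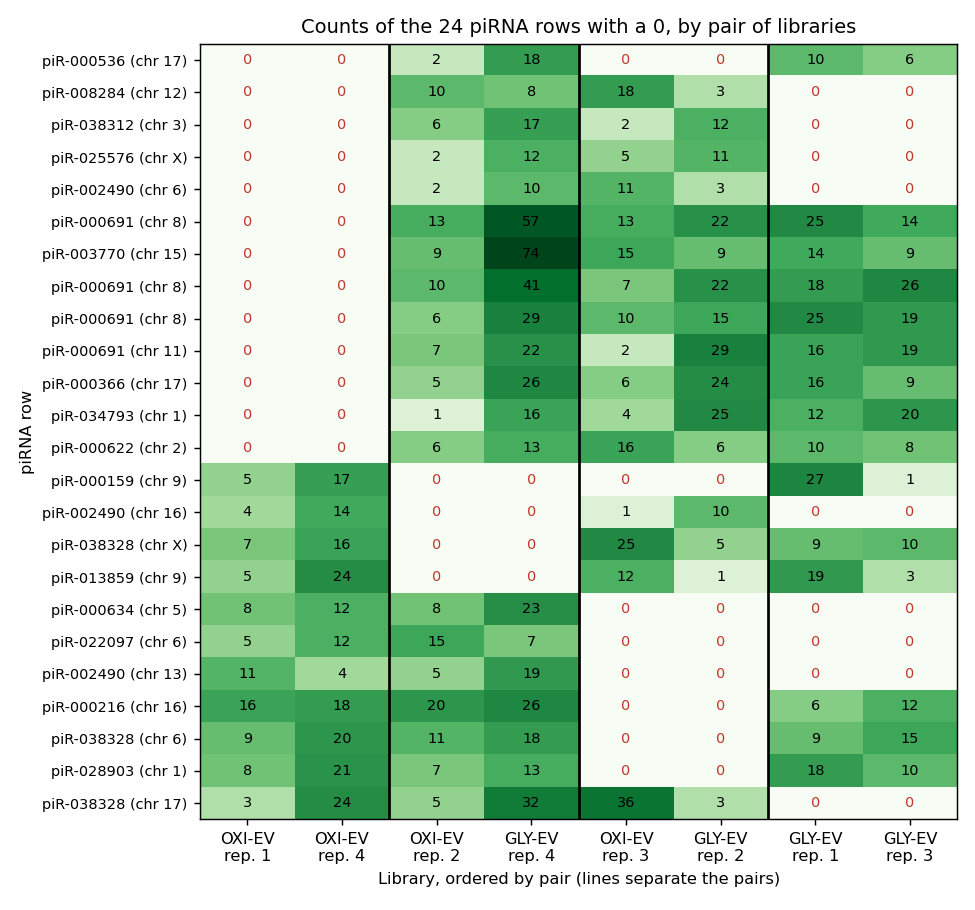
Deposited counts of the 24 piRNA rows that held a 0, with libraries on the horizontal axis ordered by pair and 1 row per line. Darker green stands for a higher count, red digits are zeros, and every 0 has a second 0 beside it in the same pair.

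The 72 rows carried 45 piRNA names, because 34 names had 1 row and 11 names had several rows each, 38 rows together. They lay on 19 chromosomes, 3 of them on chromosome X, 38 on the plus and 34 on the minus strand. The annotated length was 22 to 32 bases with a median of 28, and 68 rows were 26 to 32 bases long. The exceptions were 3 rows of 22 bases, among them piR-027673, and 1 row of 25 bases. Rows within 1000 bases of each other were joined into 52 loci, of which 8 held more than 1 row, 28 rows in all. There were 10 overlapping pairs of rows, and both rows of each pair lay on the same strand, so reads of such rows may have been divided between them. Rows of 1 name may likewise share reads, and how the counting treated them is not stated.

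The locus with the most rows was on chromosome 17, chr17:39454691-39456254, where 8 rows with 8 names lay on the plus strand over 1564 bases and made 12.4% of all piRNA counts. The locus with the most counts was chr3:5843412-5843811, with 5 rows over 400 bases and 23.3% of piRNA counts. A smaller but abundant locus, chr2:5296560-5296603, held 3 rows in 44 bases and 6.98% of piRNA counts. The same 3 names, piR-000616, piR-001570 and piR-000622, lay in the loci on chromosome 3 and chromosome 2, on opposite strands, and overlapped by 29, 17 and 14 bases in both. The other 5 loci with more than 1 row, on chromosomes 3, 5, 6, 16 and 18, made 0.352% to 0.979% of piRNA counts each. piR-000691 was spread differently, with 12 rows of 26 bases, 1 on chromosome 11 and 11 on the minus strand of chromosome 8. The starts of these 11 spanned 69534 bases from chr8:126424875-126424900 to chr8:126494409-126494434. Of the 10 steps between them, 4 measured 1673, 1679, 1703 and 1707 bases. The others measured 3400, 5075, 5087, 6752, 11916 and 30542 bases.

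**Figure D2:**
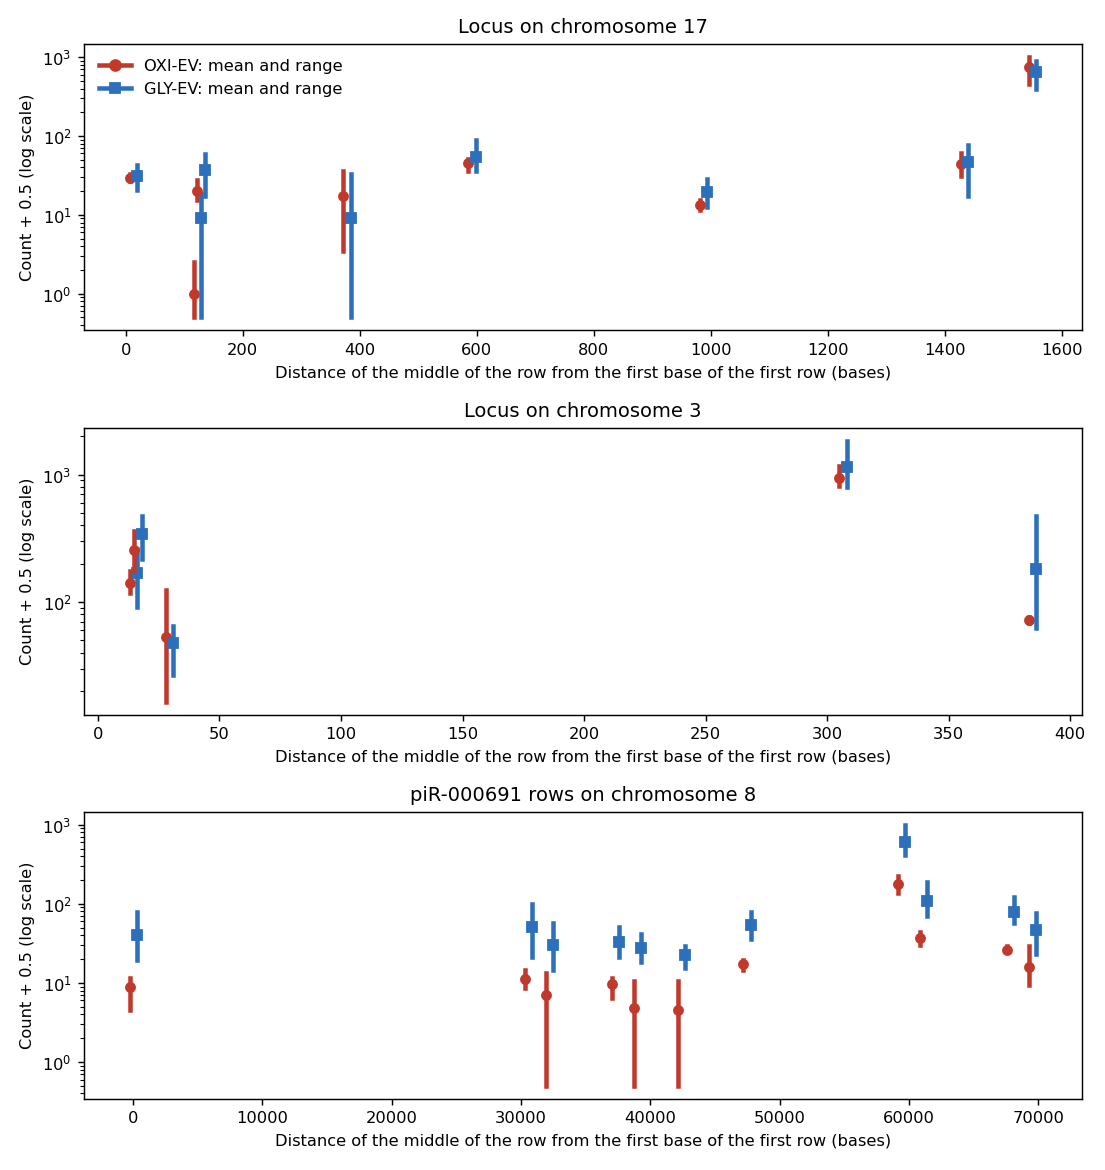
Counts of the rows on 3 stretches, against the distance in bases of the middle of each row from the first base of the first row. Circles (OXI-EV, drawn slightly left) and squares (GLY-EV, slightly right) are means and lines the range of 4 libraries, on a log axis after adding 0.5 to each count. The group ranges overlap for all rows of the loci on chromosomes 17 and 3, and the GLY-EV means lie above the OXI-EV means for all 11 piR-000691 rows on chromosome 8.

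The piRNA counts were concentrated in few rows. The mean count over the 8 libraries was at least 100 for 10 rows, 20 to under 100 for 32 rows and under 20 for 30 rows, with a median of 24.5 and a lowest mean of 3.25. The first row, piR-032974 at chr4:130021751-130021778, held 31.2% of all piRNA counts, the first 4 rows held 61.0% and the first 10 held 77.5%. The order after piR-032974 was piR-002643 and piR-000958, with mean counts of 1039 and 701, and then the main row of piR-000691 with 389. The libraries of the 2 groups differed in how far 1 row led the others. piR-032974 made 18.0% ± 2.44 of the piRNA counts of OXI-EV libraries and 39.8% ± 7.96 of those of GLY-EV libraries (SD, n = 4 each). In OXI-EV its mean of 950 ± 242 counts and that of 940 ± 162 for piR-002643 differed by less than the spread between libraries.

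Summed over the 72 rows, OXI-EV libraries had 4380, 4947, 5143 and 6378 piRNA counts, and GLY-EV libraries had 9209, 8518, 6564 and 11974. Every GLY-EV library had more piRNA counts than any OXI-EV library, and the counts of the whole table were likewise apart, with 353873 to 578484 in OXI-EV against 593632 to 1015985 in GLY-EV. Mapped reads were apart as well, with 4151145 to 4867396 in OXI-EV against 5179262 to 7197716 in GLY-EV. Such totals measure neither the number of vesicles nor the RNA per vesicle. Per 1000000 mapped reads the sums were 1153 ± 129 in OXI-EV against 1494 ± 551 in GLY-EV, a ratio of 0.771 ± 0.297, and the groups overlapped. The GLY-EV sum was 2312 in replicate 4 and 1150 to 1331 in the others. As a share of all counts of the table piRNA rows made 1.24% ± 0.150 in OXI-EV against 1.12% ± 0.0403 in GLY-EV (SD, n = 4 each), so the direction of the difference turned with the denominator. No test was made on these sums.

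The table of read classes gave numbers of reads, which differ from the counts above. OXI-EV libraries had 25066, 26144, 29159 and 26116 piRNA reads, and GLY-EV libraries had 46517, 48608, 37122 and 38210. All 4 OXI-EV values lay below all 4 GLY-EV values, with means of 26621 ± 1765 in OXI-EV against 42614 ± 5794 in GLY-EV (SD, n = 4 each). By an exact permutation test, two-sided, p was 0.0286, also 0.0286 when adjusted over 2 tests, the smallest p that 4 against 4 allows. Mapped reads were apart between the groups too, so this p does not separate piRNA reads from depth. The ratio of the OXI-EV mean to the GLY-EV mean was 0.625 for piRNA reads, 0.721 for mapped reads and 0.522 for miR reads. Of the mapped reads, piRNA reads made 0.592% ± 0.0439 in OXI-EV against 0.684% ± 0.0376 in GLY-EV (SD, n = 4 each; exact permutation p = 0.0286). Other classes in this denominator were apart between the groups too. The miR reads numbered 1494760 to 1798589 in OXI-EV against 2644902 to 3835066 in GLY-EV. Of the mapped reads less the miR reads, piRNA reads made 0.934% ± 0.0582 in OXI-EV against 1.39% ± 0.106 in GLY-EV (SD, n = 4 each). The tRNA reads made 3.17% to 5.01% of mapped reads in OXI-EV against 1.16% to 1.87% in GLY-EV. The rRNA reads made 0.220% to 0.315% in OXI-EV against 0.177% to 0.209% in GLY-EV. The part of these classes in the piRNA share was not tested. Inside the pairs the piRNA shares of all mapped reads were 0.630% in OXI-EV replicate 2 against 0.738% in GLY-EV replicate 4, and 0.624% in OXI-EV replicate 3 against 0.675% in GLY-EV replicate 2. There were 4.09 to 5.72 piRNA reads per piRNA count in OXI-EV against 3.19 to 5.71 in GLY-EV, the lowest ratio being that of GLY-EV replicate 4. With 1 library fewer, no p under 0.0571 can be reached.

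The rows were compared in 1 edgeR quasi-likelihood fit over the whole table, with mapped reads as library size. Fold changes are given as log2 of OXI-EV over GLY-EV, and p-values were adjusted over all rows tested. Of the 72 piRNA rows 56 reached 10 or more counts in 4 or more libraries and were tested, and 2 of these passed through GLY-EV counts alone. At an adjusted p under 0.05, 2 of the 56 differed, 1 higher and 1 lower in OXI-EV, against 1.91% of all 1625 rows tested. At an unadjusted p under 0.05, 13 piRNA rows were lower in OXI-EV, against 6.09% of all rows, and 4 were higher, against 9.17% of all rows. Of the 13, 9 were rows of piR-000691, and of the 4, 3 were rows of piR-038323. Rows that share 1 name are not independent of each other. The 13 include both rows that passed through GLY-EV counts alone, piR-034793 and the piR-000691 row on chromosome 11, whose direction the filter had set. With all rows of that kind left out, it was 11 of 54 piRNA rows, against 5.99% of all rows. Still among the 11 was the piR-000691 row at chr8:126463844-126463869, with 0, 10, 7 and 0 counts in OXI-EV against 18 to 41 in GLY-EV. Its highest OXI-EV count only just reached the limit of 10, so the filter favoured its direction too. The median log2 fold change was -0.01 for the 56 piRNA rows and 0.46 for all 1625 rows, so a value of 0 on this scale lies below the middle of the table. With TMM scaling, which takes most rows as equal, the medians were -0.36 and 0.09, and 12 of the 56 passed the threshold, 2 higher and 10 lower in OXI-EV (piR-034793 among them), against 6.34% of all rows. Without GLY-EV replicate 4 the medians were 0.31 and 0.77, and 3 piRNA rows passed, 2 higher and 1 lower in OXI-EV, against 1.97% of all rows. With the pairs of libraries as a block 0 piRNA rows passed in edgeR, against 1.6% of all rows, and 11 of 56 had an unadjusted p under 0.05, against 11.9% of all rows.

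**Figure D3:**
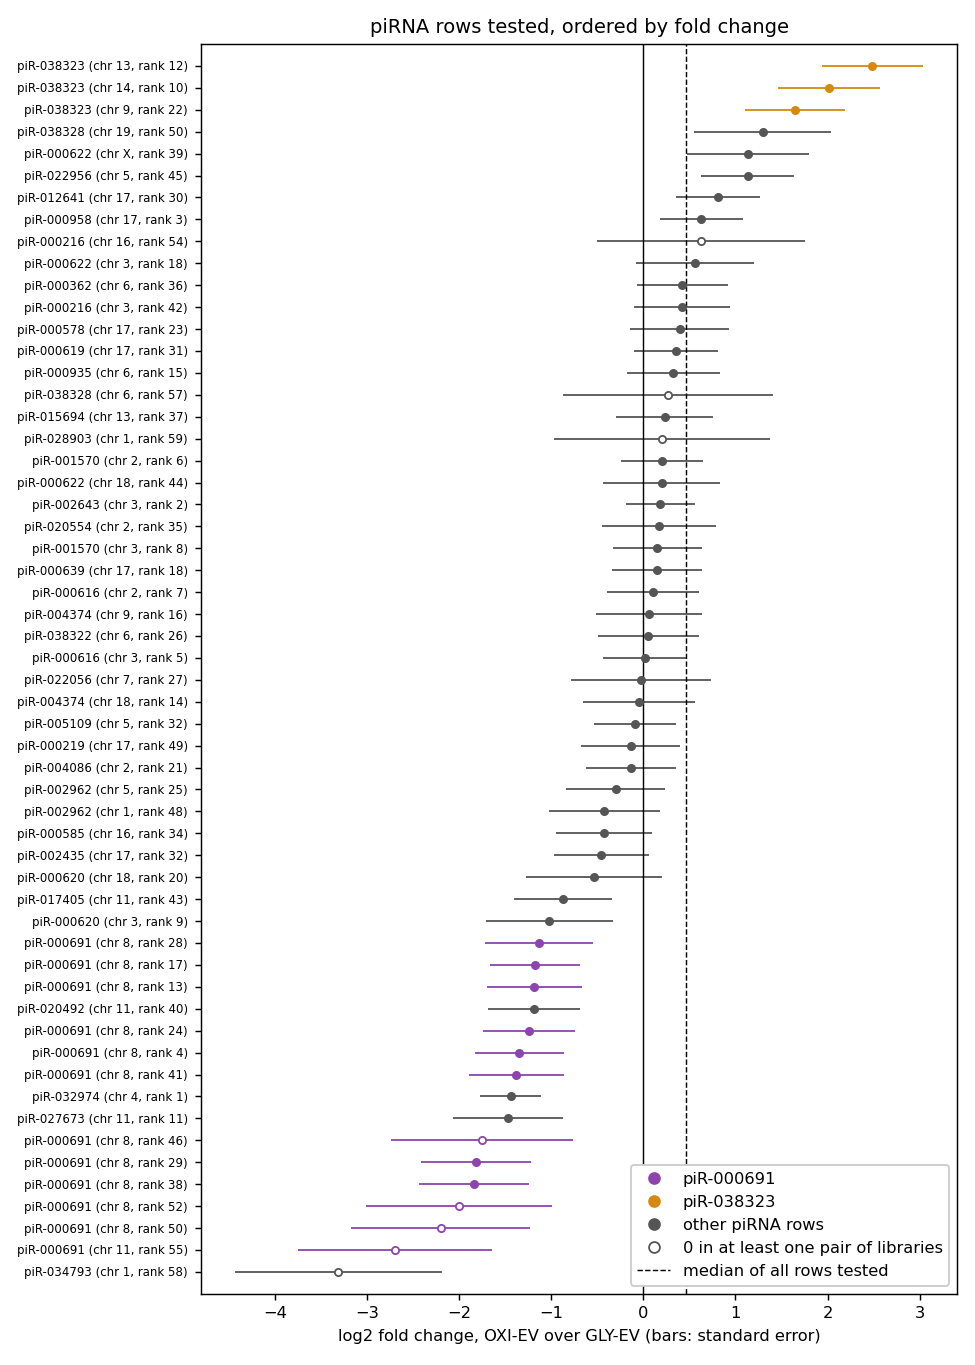
Log2 fold changes of the 56 piRNA rows tested, OXI-EV over GLY-EV, on the horizontal axis with their standard errors as bars, each row labelled by name, chromosome and abundance rank. Open circles are rows with a 0 in at least 1 pair of libraries, and the dashed line is the median of all rows tested, 0.46. The 12 piR-000691 rows lie from -2.70, that of the row on chromosome 11 that passed the filter through GLY-EV alone, to -1.13, and the 3 piR-038323 rows from 1.64 to 2.49.

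piR-032974 was the lower row past the threshold and the most abundant of all. Its counts were 630, 966, 983 and 1219 in OXI-EV libraries and 3173, 4137, 2910 and 3806 in GLY-EV libraries. The lowest GLY-EV count was above the highest OXI-EV count, and this held by CPM, with 210 ± 46.2 CPM in OXI-EV against 569 ± 120.1 CPM in GLY-EV (SD, n = 4 each). It fell by 1.44 on the log2 scale in OXI-EV (standard error, SE, 0.33, adjusted p = 0.0408). The log2 fold change was -1.96 with TMM scaling (adjusted p = 0.00448) and -1.29 without GLY-EV replicate 4 (adjusted p = 0.0351). Leaving out any 1 of the other libraries took the adjusted p above 0.05, up to 0.141, and over all 8 such fits the log2 fold change was -1.54 to -1.29. The preparation numbers 1, 4 and 5 of the labels occur in both groups, and with these 6 libraries blocked by number the log2 fold change was -1.50 and the call was lost (adjusted p = 0.0587). Inside the pairs the log2 ratio of the CPM was -1.66 for OXI-EV replicate 2 over GLY-EV replicate 4 and -1.45 for OXI-EV replicate 3 over GLY-EV replicate 2. With the pairs as a block the log2 fold change was -1.55 and its adjusted p = 0.146. Endothelial miR-126a-3p, given above, was higher in all GLY-EV libraries too, and its relation to this row and to piR-000691 was not tested.

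piR-038323 had 3 rows, on 3 chromosomes, and in each all OXI-EV libraries were above all GLY-EV libraries by CPM. Its row at chr13:44880547-44880577 had 126, 88, 129 and 168 counts in OXI-EV libraries and 29, 18, 19 and 52 in GLY-EV libraries. No GLY-EV library reached the lowest OXI-EV count, and the row rose by 2.49 on the log2 scale in OXI-EV (SE 0.55, adjusted p = 0.0391). With TMM scaling the log2 fold change was 2.27 (adjusted p = 0.00448), and without GLY-EV replicate 4, the highest of its group, it was 3.06 (adjusted p = 0.00765). Without any 1 of the other libraries the adjusted p was above 0.05 and at most 0.128. The row at chr14:18071278-18071308 had 168, 114, 199 and 157 counts in OXI-EV against 35, 36, 36 and 96 in GLY-EV, and its log2 fold change of 2.02 (SE 0.55) had an adjusted p = 0.110. This row passed the threshold with TMM scaling (adjusted p = 0.0301) and without GLY-EV replicate 4 (adjusted p = 0.00843). The row at chr9:3258895-3258925 had 41, 47, 116 and 55 counts in OXI-EV against 24, 19, 23 and 42 in GLY-EV. Its log2 fold change was 1.64 (SE 0.54, adjusted p = 0.190), and OXI-EV replicate 3 was well above the rest of its group. As a share of all piR-038323 counts this row made 17.9% ± 6.12 in OXI-EV against 26.2% ± 3.10 in GLY-EV (SD, n = 4 each), and the row on chromosome 14 was the largest in both groups with 45.5% ± 3.64 in OXI-EV against 46.4% ± 4.81 in GLY-EV.

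Inside the pairs the 3 piR-038323 rows differed in size from pair to pair. The log2 ratio of the CPM was 0.48 to 1.08 for OXI-EV replicate 2 over GLY-EV replicate 4 and 3.09 to 3.47 for OXI-EV replicate 3 over GLY-EV replicate 2. With the pairs as a block the log2 fold changes were 1.81 to 2.24, and the lowest adjusted p was 0.241. Summed over its 3 rows, piR-038323 had a log2 fold change of 2.08 (SE 0.52, adjusted p = 0.0734 in a fit of piRNA names with the miR rows).

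piR-000691 was the name with the most rows, and all 12 had a log2 fold change below 0, a sign they kept in every alternative that tested them, although none passed the threshold on mapped reads. For the row on chromosome 11 the filter had set this direction, which leaves 11 rows. Of these, chr8:126463844-126463869 and chr8:126467244-126467269 had a highest OXI-EV count of 10, against 18 to 41 and 15 to 29 in GLY-EV. The filter favoured the direction of these rows too. The main piR-000691 row, chr8:126484247-126484272, had 143, 225, 137 and 206 counts in OXI-EV libraries and 475, 522, 418 and 984 in GLY-EV libraries. The groups did not overlap, and the highest value was that of GLY-EV replicate 4. Its log2 fold change was -1.35 (SE 0.48, adjusted p = 0.231), -0.85 without GLY-EV replicate 4 (adjusted p = 0.189) and -1.71 with TMM scaling (adjusted p = 0.0106). This row made 55.5% ± 6.45 of the piR-000691 counts in OXI-EV against 54.4% ± 1.40 in GLY-EV (SD, n = 4 each), a difference smaller than the spread between libraries. The second row, chr8:126485950-126485975, made 11.8% ± 2.67 in OXI-EV against 9.63% ± 0.706 in GLY-EV.

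The 8 piR-000691 rows with counts in all libraries had log2 fold changes from -1.84 to -1.13. With TMM scaling 7 of the 8 passed the threshold, against 6.34% of all rows tested. These rows share 1 name and are not independent of each other. The other 4 held zeros in OXI-EV replicates 1 and 4, and their fitted log2 fold changes were -2.70 to -1.75. The -2.70 was that of the row at chr11:74136081-74136106, with 0, 7, 2 and 0 counts in OXI-EV against 16 to 29 in GLY-EV, which passed the filter through GLY-EV alone, so its direction was set by the filter. Without it the other 11 rows lay between -2.20 and -1.13. When these zeros were set to 9, the highest count they can stand for, the 12 rows lay between -1.84 and -0.94. Without GLY-EV replicate 4 the 12 lay between -2.59, again the chromosome 11 row, and -0.61, the other 11 between -1.79 and -0.61, and the lowest adjusted p was 0.189. Inside the pairs all 12 were lower in OXI-EV replicate 2 than in GLY-EV replicate 4, and 11 of 12 were lower in OXI-EV replicate 3 than in GLY-EV replicate 2, with median log2 ratios of -1.81 and -1.07. Without the chromosome 11 row, whose direction the filter had set, these counts were 11 of 11 and 10 of 11. The rows named above with a highest OXI-EV count of 10 are still among these 11. Of all piRNA rows tested, 47 of 56 were lower in the first of these pairs (median -0.93), which holds GLY-EV replicate 4, and 24 of 53 in the second (median 0.04). Summed over its 12 rows, piR-000691 had 317.8 ± 54.0 counts in OXI-EV against 1107 ± 490 in GLY-EV (SD, n = 4 each), a log2 fold change of -1.39 (SE 0.45, adjusted p = 0.190).

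**Figure D4:**
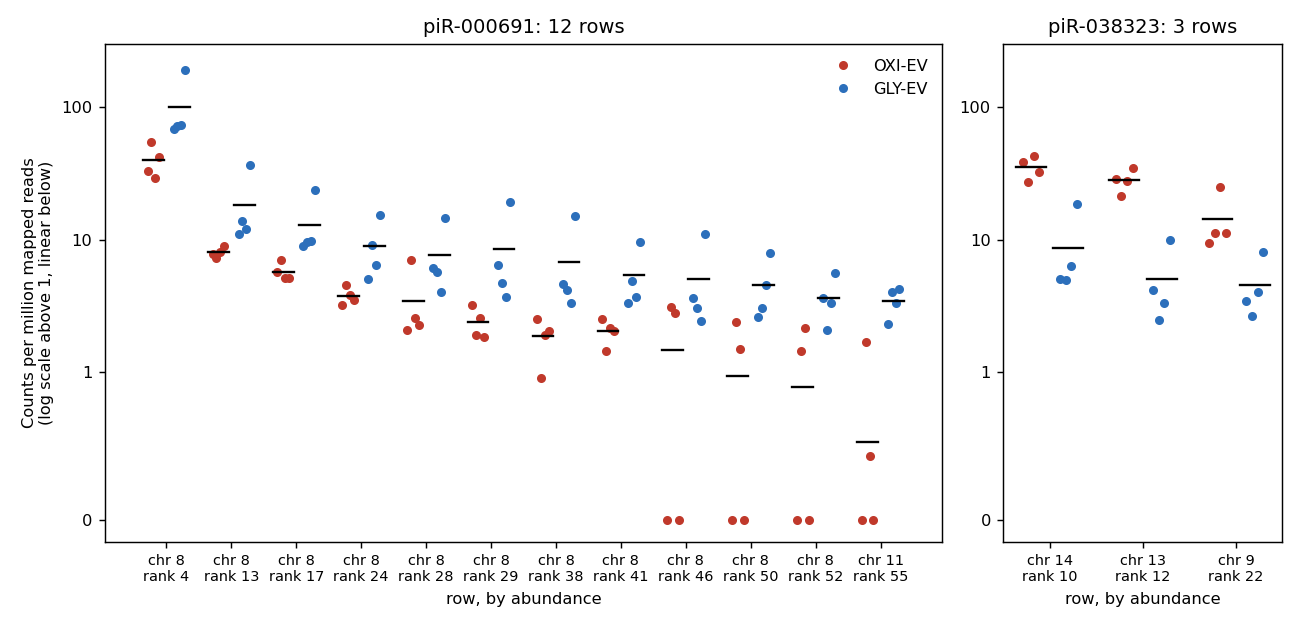
Counts per 1000000 mapped reads of the 12 piR-000691 rows and the 3 piR-038323 rows, on an axis that is logarithmic above 1 and linear below, with 1 point per library, OXI-EV left of GLY-EV, and bars at the means. Points at 0 are the OXI-EV replicates 1 and 4, whose zeros stand for fewer than 10 counts. In the main piR-000691 row on chromosome 8 (rank 4) all OXI-EV points lie below all GLY-EV points, and in all 3 piR-038323 rows they lie above.

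Other rows lower in OXI-EV without passing the threshold were of low or uneven count. piR-034793, chr1:162875028-162875055, had 0, 1, 4 and 0 counts in OXI-EV against 12, 25, 20 and 16 in GLY-EV, and passed the filter through GLY-EV alone. Its fitted log2 fold change of -3.31 (SE 1.12, adjusted p = 0.206) became -1.21 (adjusted p = 0.226) when the zeros were set to 9. piR-027673, the abundant row of 22 bases at chr11:106317081-106317102, had 42, 45, 46 and 41 counts in OXI-EV against 86, 136, 71 and 329 in GLY-EV. The OXI-EV libraries were close to each other, and GLY-EV replicate 4 was far above its group. The log2 fold change was -1.46 (SE 0.60, adjusted p = 0.269), and -0.59 without that library (adjusted p = 0.302). piR-020492, chr11:108827972-108827997, had 12, 11, 14 and 9 counts in OXI-EV against 29, 31, 23 and 57 in GLY-EV, and its log2 fold change was -1.19 (SE 0.50, adjusted p = 0.284).

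Beside piR-038323, the rows with the smallest p among those higher in OXI-EV were piR-022956 and piR-012641. piR-022956, chr5:115112809-115112837, had 14, 13, 30 and 38 counts in OXI-EV against 19, 14, 9 and 16 in GLY-EV. These counts overlapped, but the CPM did not, and the log2 fold change was 1.14 (SE 0.50, adjusted p = 0.304). piR-012641, chr17:27048950-27048977, had 29, 30, 38 and 34 counts in OXI-EV against 22, 48, 18 and 18 in GLY-EV, and its log2 fold change was 0.81 (SE 0.45, adjusted p = 0.403). By CPM, 13 of the 56 rows had all GLY-EV libraries above all OXI-EV libraries, against 5.17% of all rows tested, and 4 had all OXI-EV libraries above, against 3.82%. Without the rows that passed the filter through 1 group alone, it was 11 of 54 with GLY-EV above, against 5% of all rows. The piR-000691 row at chr8:126463844-126463869, with a highest OXI-EV count of 10, is still among these 11. Leaving the piR-000691 rows aside, it was 4 of 44 in each direction, with piR-034793 among those with GLY-EV above. Of the 4 with OXI-EV above, 3 were the piR-038323 rows, which also share 1 name and are not independent of each other.

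At the abundant loci the groups overlapped. The 8 rows at the chromosome 17 locus summed to 638, 996, 863 and 1185 counts in OXI-EV against 1074, 553, 594 and 1187 in GLY-EV, with the lowest sum in a GLY-EV library. Its main row, piR-000958 at chr17:39456228-39456254, had 461, 856, 691 and 1003 counts in OXI-EV against 862, 396, 433 and 905 in GLY-EV. The 2 GLY-EV libraries that were low were replicates 2 and 3, and the log2 fold change was 0.63 (SE 0.45, adjusted p = 0.510). Of the 6 rows tested at this locus 0 passed the threshold, and 0 had an unadjusted p under 0.05 in edgeR. The next rows there, piR-000639 and piR-000578, had mean counts of 44.8 and 44.2 in OXI-EV against 54.3 and 46.3 in GLY-EV.

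At the chromosome 3 locus the 5 rows summed to 1334, 1257, 1423 and 1821 counts in OXI-EV against 2474, 1442, 1218 and 2361 in GLY-EV, again overlapping. piR-002643, chr3:5843705-5843732, had 849, 807, 934 and 1169 counts in OXI-EV against 1829, 804, 823 and 1094 in GLY-EV. GLY-EV replicate 1 was its highest library, and the log2 fold change was 0.18 (SE 0.37, adjusted p = 0.833), with a sign that turned to -0.19 with TMM scaling. piR-000620, 30 bases at chr3:5843782-5843811, had 68, 75, 70 and 73 counts in OXI-EV against 95, 97, 62 and 474 in GLY-EV. Its log2 fold change of -1.02 (SE 0.69, adjusted p = 0.495) rested on GLY-EV replicate 4, without which it was 0.33 (adjusted p = 0.515). Its second position, chr18:54824345-54824374, had 31, 48, 41 and 16 counts in OXI-EV against 30, 30, 24 and 166 in GLY-EV, so the same library was high at both positions.

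piR-000616 and piR-001570, which overlap by 29 bases on both chromosomes, were among the 8 most abundant rows at each position. piR-000616 had 256, 235, 174 and 359 counts in OXI-EV against 345, 333, 216 and 469 in GLY-EV on chromosome 3. On chromosome 2 it had 211, 143, 128 and 224 in OXI-EV against 200, 193, 120 and 356 in GLY-EV. piR-001570 leaned the other way, with more counts on chromosome 2 (309, 223, 221 and 337 in OXI-EV against 276, 308, 222 and 459 in GLY-EV) than on chromosome 3 (145, 116, 122 and 174 in OXI-EV against 142, 174, 91 and 260 in GLY-EV). The groups overlapped in all 4 rows, and none had an unadjusted p under 0.05. The chromosome 3 position held 59.0% ± 3.47 of piR-000616 counts in OXI-EV against 61.9% ± 3.42 in GLY-EV (SD, n = 4 each), and 29.1% to 36.2% of piR-001570 counts over all 8 libraries. For piR-000616 the groups differed in this share by less than the spread between libraries.

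**Figure D5:**
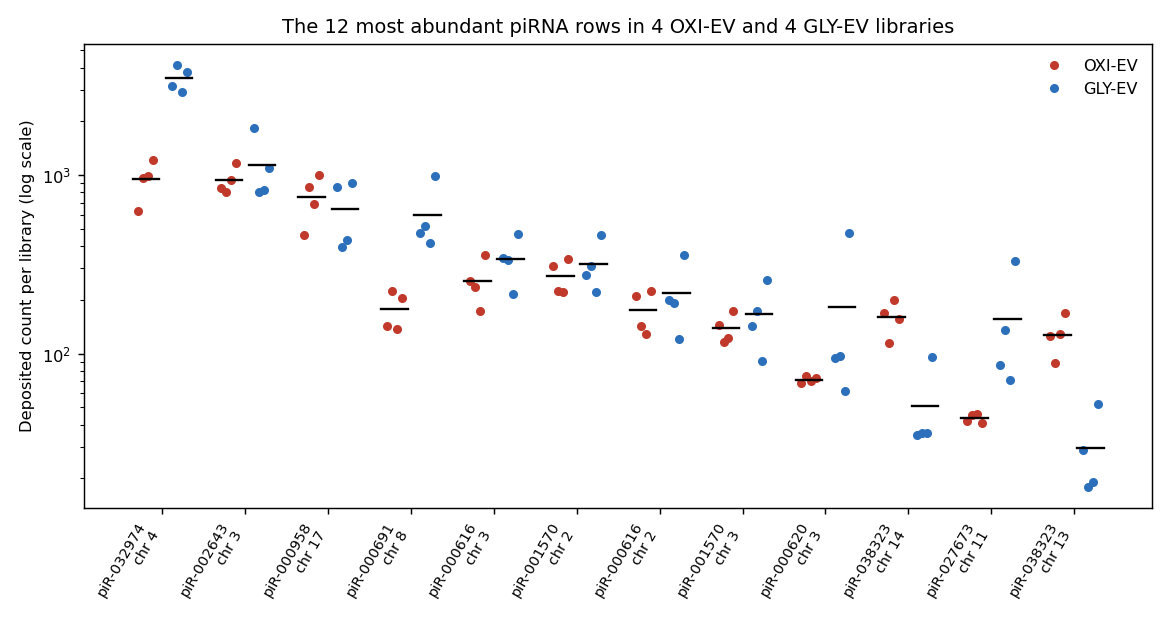
Deposited counts of the 12 most abundant piRNA rows on a log axis, with 1 point per library, OXI-EV left of GLY-EV, and bars at the means. The groups are apart for piR-032974, for piR-000691 on chromosome 8, for piR-027673 (OXI-EV 41 to 46, GLY-EV 71 to 329) and for piR-038323 on chromosome 14 (OXI-EV 114 to 199, GLY-EV 35 to 96) and chromosome 13, and the GLY-EV points far above their group for piR-000691, piR-000620 and piR-027673 are those of replicate 4.

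In piR-000622 1 OXI-EV library was above its group. At chr3:5843428-5843455 it had 16, 24, 123 and 46 counts in OXI-EV against 63, 34, 26 and 64 in GLY-EV. At chrX:112404287-112404314 the counts were 8, 15, 73 and 24 in OXI-EV against 20, 17, 8 and 27 in GLY-EV. At chr18:54824707-54824734 they were 6, 10, 44 and 11 in OXI-EV against 32, 12, 16 and 23 in GLY-EV. OXI-EV replicate 3 was the highest OXI-EV library at all 3 positions, and at the fourth, on chromosome 2, where it had 16 counts. None of the 3 piR-000622 rows tested had an unadjusted p under 0.05.

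piR-004374, 30 bases long, had its 2 rows on chromosomes 18 and 9. At chr18:85832427-85832456 the counts were 24, 38, 81 and 64 in OXI-EV against 57, 27, 59 and 127 in GLY-EV, and at chr9:110126452-110126481 they were 29, 70, 63 and 38 in OXI-EV against 114, 24, 43 and 81 in GLY-EV. The libraries were ordered differently at the 2 positions, with GLY-EV replicate 4 highest at the one and replicate 1 at the other, and the groups overlapped at both. piR-000935, chr6:47717737-47717766, had 70, 54, 44 and 57 counts in OXI-EV against 40, 58, 40 and 100 in GLY-EV, which also overlapped.

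The smaller loci held rows of low count. Those at chr5:146565258-146565424 (piR-005109, piR-002962 and piR-000634) summed to 56.5 ± 22.8 counts in OXI-EV against 83.3 ± 27.7 in GLY-EV. Those at chr6:3151091-3151505 (piR-038322, piR-000362 and piR-038328) summed to 65.8 ± 25.4 in OXI-EV against 73.5 ± 34.4 in GLY-EV. The pair at chr16:57312741-57312982 (piR-000585 and piR-002490) summed to 24.0 ± 14.3 in OXI-EV against 37.3 ± 16.3 in GLY-EV, and the pair at chr3:83210045-83210098 (piR-000216 and piR-038312) to 22.3 ± 10.2 in OXI-EV against 28.0 ± 11.3 in GLY-EV (SD, n = 4 each). The groups overlapped in all 4 loci. These sums are raw counts, and mapped reads were higher in every GLY-EV library. On mapped reads the log2 fold changes of the rows tested were 0.06 to 0.42 at the chromosome 6 locus. They were -0.30 and -0.09 at the chromosome 5 locus, -0.43 for piR-000585 and 0.42 for piR-000216 on chromosome 3. The 16 piRNA rows that were not tested included all 3 rows of piR-002490, with at most 19 counts in any library, and piR-003770 on chromosome 15, whose 74 counts in GLY-EV replicate 4 stood against 15 or fewer in the other libraries. No row was at 0 in all libraries of a group.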

How the data were processed

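Small RNA of 4 OXI-EV and 4 GLY-EV preparations was sequenced from libraries of the QIAseq miRNA kit, which tags molecules with unique molecular identifiers. For each miR or piRNA row the authors deposited a raw count, made with cutadapt and STAR on GRCm38, per the labels. No versions and no counting tool are named in the sources. The counts lie below the read numbers and appear to be molecules. The second table holds the authors' read counts per class. The authors' log2 fold changes, fold changes and deposited p-values (with FDR) of their own comparison were not used.

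Mapped reads (OXI-EV 4151145 to 4867396, GLY-EV 5179262 to 7197716) were the sum of the mapped classes and served as library size. All miR and piRNA rows that reached 10 counts in 4 or more of 8 libraries were fitted together with edgeR 4.0.16 (quasi-likelihood test, R 4.3.3) for OXI-EV over GLY-EV, with Benjamini-Hochberg adjustment over all rows and a threshold of 0.05. Standard errors are the size of the log2 fold change over the square root of F. For single values per library the test was an exact permutation test, two-sided. Scripts were tested on simulated data, and used Python 3.11.15, pandas 2.3.3, scipy 1.17.1 and GENCODE mouse release 21 for positions. No libraries were duplicates of each other by their counts.

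Rows named are the 15 most abundant, those past the threshold, the 5 with the smallest p in each direction and the 3 most abundant of each locus. piR-020492 and further rows of piR-000691, piR-000622 and piR-004374, and piR-003770, were added after their values were seen. The rows and lists were chosen with earlier results of these data known. Alternatives were other scalings, filters and tools (DESeq2 1.42.0, limma 3.58.1 with voom), piRNA rows alone, blocks, and leaving out each library. The pair block, zeros set to 9 and rows summed per name were added after seeing the data.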

Additional observations from a re-analysis of the deposited data

Results flagged for a closer look

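Of 80 groups of 4 values checked, those of 36 named rows and 4 library totals in each group, 17 held 1 library whose gap to the nearest other exceeded the 95% limit of Dixon's test, a limit that chance passes in about 1 group in 20. GLY-EV replicate 4 was that library in 12 of them. The values that follow are counts per 1000000 mapped reads.

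In GLY-EV replicate 4 the sum of all piRNA rows was 2312, against 1150 to 1331 in the other GLY-EV libraries. The main row of piR-000691 on chromosome 8 was at 190.0 there, against 68.6 to 73.2, its second row at 36.5, against 11.1 to 13.8, and its row at chr8:126424875-126424900 at 15.1, against 3.33 to 4.62. piR-001570 on chromosome 2 was at 88.6, against 38.9 to 42.8, and piR-000616 on chromosome 2 at 68.7, against 21.02 to 28.9. piR-000620 was at 91.5 on chromosome 3, against 10.9 to 13.7, and at 32.1 on chromosome 18, against 4.17 to 4.34. piR-027673 was at 63.5, against 12.4 to 18.9, piR-038323 on chromosome 14 at 18.5, against 5.002 to 6.31, piR-000935 at 19.3, against 5.78 to 8.06, and piR-000634 at 4.44, with the other GLY-EV libraries at 0. All counts of the table per mapped read were also highest in this library, and the part of that in these values was not tested.

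In the other libraries, piR-012641 was at 6.67 in GLY-EV replicate 2, against 3.15 to 3.48, and piR-002490 on chromosome 16 was at 1.39 there, with the other GLY-EV libraries at 0. The equal zeros fixed the flag of this piR-002490 row as well. In OXI-EV replicate 3, piR-038323 on chromosome 9 was at 24.8, against 9.43 to 11.3, and piR-000622 on chromosome 18 at 9.42, against 1.38 to 2.41. In OXI-EV replicate 4, piR-002643 was at 240.2, against 194.4 to 200.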

How the results depend on the processing

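The 2 piRNA rows past the threshold became 12 with TMM scaling (2 higher and 10 lower in OXI-EV), 12 with DESeq2's size factors (2 and 10), 6 with the total count of the table as library size (5 and 1), 1 with piRNA reads as library size, 7 when the piRNA rows were fitted alone and 5 with the DESeq2 test. Rows summed per piRNA name gave 1. Leaving out 1 library gave 0 to 3, with 10 to 17 at an unadjusted p under 0.05 in edgeR, and the 3 came without GLY-EV replicate 4. Libraries of the same replicate number had correlations of 0.149, -0.168, -0.149 and 0.0516. With 4 libraries per group these cannot decide whether replicate numbers pair the libraries. Replicates 1, 3 and 4 carry equal preparation numbers across the groups (1, 4 and 5). Replicate 2 joins preparation 3 (OXI-EV) to preparation 2 (GLY-EV), so the block and the pairing by replicate number below both include a pair of unequal preparation numbers. The replicate block left 2 piRNA rows past the threshold, the block by preparation number 1 (piR-038323 on chromosome 13, with piR-032974 lost) and the block by the pairs that share zeros 0, with 11 at an unadjusted p under 0.05. Paired by replicate number, the difference in piRNA reads of -15993 and that in their percent of mapped reads of -0.0921 had an exact p = 0.125, the smallest that 4 pairs allow. Without 1 library the differences were -17824 to -13995 reads and -0.105 to -0.0737 percent of mapped reads, with an exact permutation p = 0.0571 each time. The ratio of the summed piRNA counts was 1.11 as a share of the table's counts, against 0.771 per mapped read. The log2 fold change of piR-002643 turned to -0.19 with TMM scaling and -0.18 with DESeq2's size factors. That of piR-000620 on chromosome 3 was -1.31 to 0.33 without 1 library, above 0 without GLY-EV replicate 4. Over the 489 refitted values of the 24 rows whose fold changes are given, 3 turned sign, 36 passed the threshold where the value in the report did not, 18 no longer passed it and 432 kept their sign and side. Counts below 10 in both libraries of a pair cannot be told from 0, which limits the 24 rows with zeros. The number of loci was 64 when only overlapping rows were joined and 44 with a limit of 10000 bases.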
